A study of Mus musculus with 104 samples.

Results

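The cholesterol genes described here are 32 of the 45808 gene rows of a count table from single mouse substantia nigra neurons. They were chosen by name to cover the pathway by step. There were 18 enzymes of synthesis, 5 genes that regulate the pathway, 3 lipoprotein receptors, 3 genes of sterol transport inside the cell, 1 gene of storage and 2 of export and turnover. The experiment and control values of these same libraries were known when the genes were chosen, so every difference between the groups below is a description and carries no test. All 32 had a row, and 31 were expressed, meaning a CPM (count scaled to the library total) of at least 10 over all libraries together and a count in at least 25% of the libraries of one group. The exception was Fdps.

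Neurons make cholesterol from acetyl-CoA through mevalonate, farnesyl diphosphate, squalene and lanosterol, and adult neurons also take it up in lipoproteins made by glia. When sterol in the endoplasmic reticulum is low, Scap escorts the SREBP transcription factors encoded by Srebf1 and Srebf2 to the Golgi, where they are cut and released to switch on the synthesis genes. When sterol is high, the Insig proteins hold Scap back. Cholesterol crosses the blood-brain barrier poorly, and neurons dispose of it largely by turning it into an oxysterol that can.

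The study, by its title, concerns fluorescent reporters that show Lewy pathology in the living brain. The experiment group held 38 libraries and the control group 66, each from 1 neuron drawn into a patch pipette from a brain slice and labelled as a dopaminergic neuron of the substantia nigra. The series text describes picking neurons that carried inclusions of an α-synuclein and EGFP fusion, and neither it nor the labels say what the control neurons carried. The labels name no animal, strain, age, time or way of delivering the fusion for any library, so each group counts as 1 sample of neurons and differences between neurons cannot stand for differences between animals.

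Th, Slc6a3, Slc18a2 and Ddc, the genes for making, packaging and recovering dopamine, had counts in all 38 experiment and all 66 control libraries. Library totals ran from 116567 to 3094036 gene counts in experiment neurons, with a median of 960027, and from 153770 to 2577694 in control neurons, with a median of 1039850. Several properties of the libraries moved with the groups. The median number of genes with a count was 7354 in experiment and 8548 in control neurons, and the median share of ERCC spike-in counts, which is higher where a neuron gave less RNA, was 0.421% in experiment and 0.251% in control neurons. The median share of mitochondrial counts was 4.33% in experiment and 2.72% in control neurons. The summed level of 10 dopaminergic markers had a median of 17447.5 CPM in experiment neurons, ranging from 637 to 24988 CPM, and of 23032.5 CPM in control neurons, ranging from 2220.4 to 35824 CPM. Summed glial markers had a median of 2038 CPM in experiment and 1299 CPM in control neurons. Of the 9 expressed astrocyte markers of 12, 7 were at least 1.5-fold higher in experiment neurons, although defining markers such as Aqp4 and Gja1 had a median of 0 CPM in both groups. Of the 4 expressed GABAergic neuron markers of 5, 3 were called higher, and Gad1, a GABA-making enzyme, had a median of 41.6 CPM in experiment and 5.49 CPM in control neurons. In 7 libraries, 5 experiment and 2 control, the glial sum was above the dopaminergic sum, against the label. Among them experiment library 27 had the lowest dopaminergic sum of all libraries, 637 CPM, with a glial sum of 17500.2 CPM, and experiment library 52 had 3937 CPM of dopaminergic and 17297 CPM of glial markers. Without those 7 libraries the calls described below, 12 members lower and 2 higher, were the same genes, and the median log2 ratio of the synthesis enzymes was -0.36. The part of depth, RNA yield, mitochondrial share and RNA of other cells in the differences below was not tested. Libraries were also divided by their titles into 2 sets, of which set 1 held 21 experiment and 31 control neurons and set 2 held 17 experiment and 35 control neurons. Ratios are given within each, and since the sets hold different shares of each group, a pooled ratio can lie outside both.

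The sequences upstream of these genes were searched for letters through which the pathway's factors are known to work. Promoter windows of 250 bases before to 50 bases after the transcription start, from RefSeq on build GRCm38.p6, were found for 27 of the 32 genes, among them 15 of the 18 enzymes. The 3 motifs were searched on both strands: CACCCCAC, a core of sterol regulatory elements, which SREBPs bind; CACGTG, the E-box, which SREBPs can also bind; and CCAAT, the site of NF-Y, which acts beside SREBPs. The element CACCCCAC lay in 2 of the 27 genes, Acat2 and Hmgcs1, against 3.30% of all 27025 genes with a window, counting a gene where any of its windows held the letters. The E-box lay in 6 of 27 members, against 8.09% of all genes. CCAAT lay in 22 of 27 members and in 14 of the 15 enzymes matched, against 41.1% of all genes. The 27 members had 38 windows and the 27025 genes had 32851. Members thus had more windows per gene, which can raise the count of members with a match. Other forms of the sterol element were not searched, and a match is a run of letters, not a site shown to be bound.

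Printed 5′ to 3′ on the strand of the gene with the motifs in capitals (ATTGG is CCAAT read on the other strand), the windows below are those of both genes with the sterol element and of Msmo1 and Insig1, which come up often in the results. Acat2 is at chr17:12960676-12960975 on the minus strand, Hmgcs1 at chr13:119690101-119690400 on the plus strand, Msmo1 at chr8:64733529-64733828 on the minus strand, and Insig1 at chr5:28071162-28071461 on the plus strand.
Acat2: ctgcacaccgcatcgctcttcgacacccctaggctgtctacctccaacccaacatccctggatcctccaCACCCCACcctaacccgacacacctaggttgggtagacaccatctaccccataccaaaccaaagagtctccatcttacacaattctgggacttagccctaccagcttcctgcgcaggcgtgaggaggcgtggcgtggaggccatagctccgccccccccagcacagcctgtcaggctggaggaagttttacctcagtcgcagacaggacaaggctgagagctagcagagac
Hmgcs1: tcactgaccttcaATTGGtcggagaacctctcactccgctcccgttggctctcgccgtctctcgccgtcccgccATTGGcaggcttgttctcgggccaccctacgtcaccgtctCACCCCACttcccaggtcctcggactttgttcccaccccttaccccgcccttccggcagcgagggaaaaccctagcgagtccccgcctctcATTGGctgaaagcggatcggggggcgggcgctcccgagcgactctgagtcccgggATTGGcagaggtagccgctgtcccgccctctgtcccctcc
Msmo1: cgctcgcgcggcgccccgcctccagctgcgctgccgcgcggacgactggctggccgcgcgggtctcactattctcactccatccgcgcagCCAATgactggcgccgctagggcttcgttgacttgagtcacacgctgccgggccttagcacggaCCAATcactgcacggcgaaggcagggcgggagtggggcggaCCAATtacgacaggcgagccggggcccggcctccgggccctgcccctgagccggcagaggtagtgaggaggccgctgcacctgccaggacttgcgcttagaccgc
Insig1: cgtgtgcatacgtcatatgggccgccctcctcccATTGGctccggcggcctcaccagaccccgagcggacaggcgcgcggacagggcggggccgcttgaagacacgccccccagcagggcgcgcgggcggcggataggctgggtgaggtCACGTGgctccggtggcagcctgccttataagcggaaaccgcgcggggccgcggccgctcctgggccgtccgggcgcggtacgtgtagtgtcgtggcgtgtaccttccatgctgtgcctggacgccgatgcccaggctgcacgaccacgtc
Hmgcs1 held 1 sterol element and 4 runs of CCAAT in its window and Msmo1 held 3 CCAAT on its own strand. Acat2 held the sterol element alone of the 3 motifs, and Insig1 held 1 E-box and 1 CCAAT. No match overlapped another in these windows.

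Of the 17 expressed enzymes of cholesterol synthesis, 8 were called lower in experiment neurons and none higher. A gene is called higher or lower here where it differed at least 1.5-fold in the same direction by 2 weightings, the CPM of all counts of a group pooled and the mean of the CPM of its neurons. Of the 31 expressed members, 12 were called lower and 2 higher. Over all 9113 expressed genes, 11.0% were called lower and 7.77% higher. The contrast was in view when the members were chosen, so the shares stand side by side and nothing is read from them. Asking also for the same direction in both title sets left 12 lower and 2 higher, beside 9.92% and 6.24% of all expressed genes, but Srebf1 passed it only nominally, with a ratio of 1.00 in set 1. The genes called lower were Hmgcs1, Mvd, Idi1, Fdft1, Sqle, Lss, Msmo1 and Hsd17b7 among the enzymes, with Srebf2, Insig1, Stard4 and Cyp46a1. The genes called higher were Srebf1 and Npc1. Nearest outside the threshold were Scap, with log2 ratios of -0.60 pooled and -0.57 by the mean, Lrp1, with -0.52 and -0.51, and Acat2, with -0.47 and -0.64. Nearest inside it were Insig1, with -0.65 and -0.96, Stard4, with -0.93 and -0.68, and Srebf1, with 0.89 and 0.65.

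**Figure D1:**
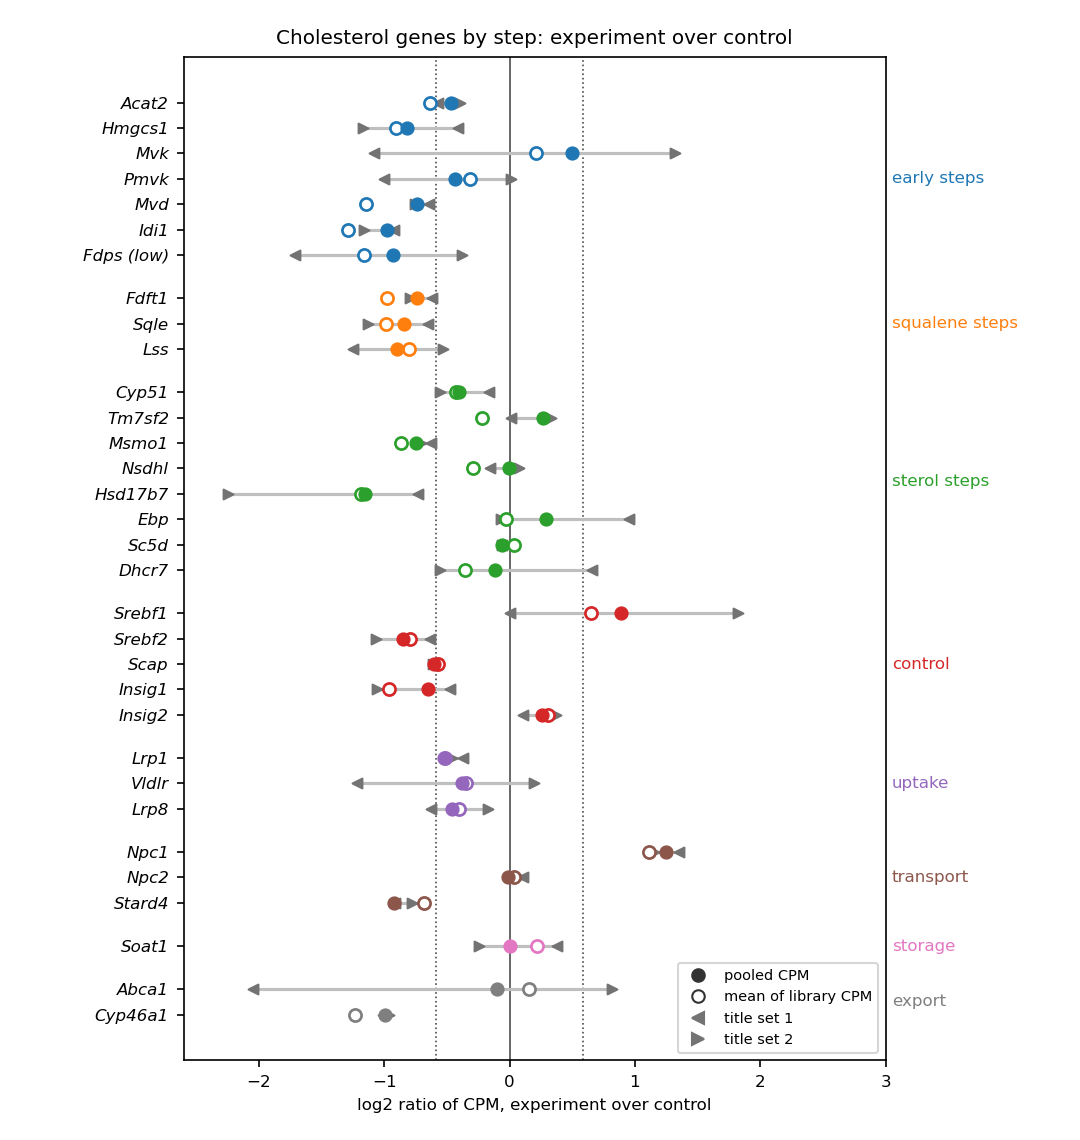
Log2 ratio of each of the 32 cholesterol genes, experiment over control, arranged by step of the pathway, with the pooled ratio as a filled circle, the ratio of the mean library CPM as an open circle and each title set as a triangle. Dotted lines mark 1.5-fold. All 3 squalene genes lie below 0, from -0.90 to -0.74 pooled, while the sterol steps run from -1.16 to 0.29.

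The 18 enzymes summed to 1824 CPM pooled over experiment neurons (1811 to 1838, exact Poisson 95% interval) and 2721 CPM over control neurons (2709 to 2732). The ratio was 0.671 (0.665 to 0.676, exact binomial 95% interval), 0.718 in set 1 and 0.651 in set 2. Such intervals cover the counting of reads only and leave out the spread between neurons. The reads carry no molecular identifiers, so copies of 1 molecule are counted apart and the intervals can be too narrow. Neuron by neuron, the sum was 369 CPM at its lowest, 1427 at its median and 4090.1 at its highest in the experiment group, against 462, 2619.5 and 6552 CPM in the control group. The ranges overlapped over most of their length, yet 33 of the 38 experiment neurons lay below the control median. The upper quartile of experiment neurons, 2223 CPM, was near the lower quartile of control neurons, 2087 CPM. Experiment library 2 held the largest part of the group's enzyme counts, 10.1%.

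**Figure D2:**
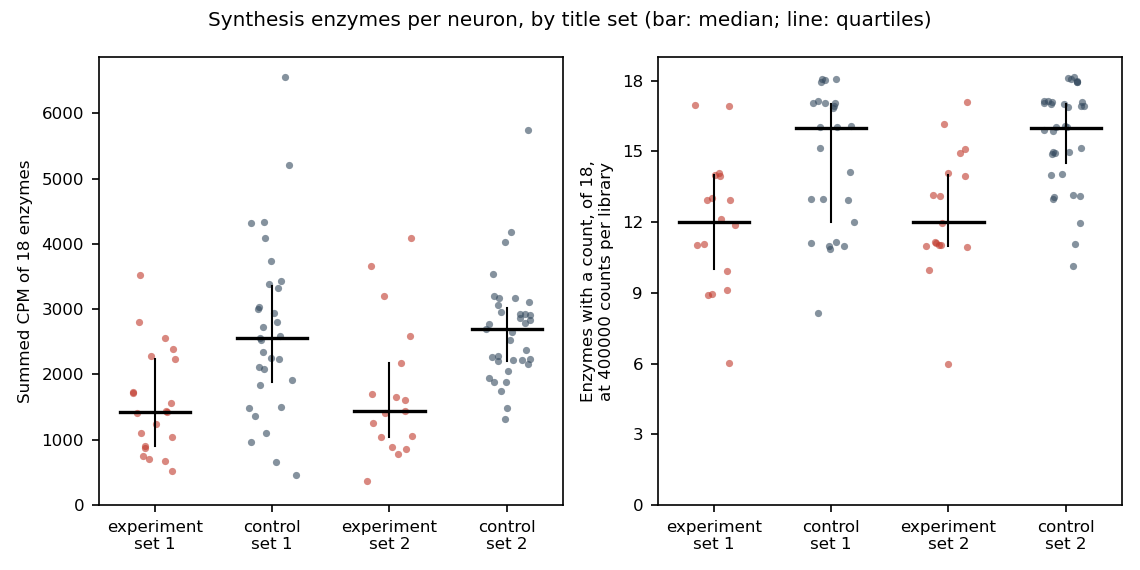
Left, summed CPM of the 18 synthesis enzymes in each neuron. Right, number of the 18 enzymes with a count after each library was thinned to 400000 counts. Each point is 1 neuron, with experiment left of control within each title set, bars at the medians and lines over the quartiles. The median sums are 1421 CPM in experiment and 2558 CPM in control neurons of set 1, and 1433 CPM in experiment and 2691 CPM in control neurons of set 2. In both sets the median number of enzymes is 12 in experiment and 16 in control neurons.

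Fewer of the enzymes were detected in an experiment neuron at equal depth. Thinning every library to 400000 counts dropped 4 shallower experiment and 6 shallower control libraries. Thereafter the median number of the 18 enzymes with a count was 12 in experiment neurons, from 6 to 17, and 16 in control neurons, from 8 to 18. All genes moved the same way, with a median of 6914.5 genes with a count in thinned experiment libraries and 8465 in thinned control libraries. Of the 17 expressed enzymes, a median of 73.5% lay below their control median in an experiment neuron and 47.1% in a control neuron. Over all expressed genes those medians were 47.6% and 41.3%. The share of enzymes below was larger than the share of all genes below in 33 of 38 experiment neurons and in 40 of 66 control neurons. An expressed gene with a control median of 0 CPM, such as Abca1, cannot lie below it, and such genes lower the share of all genes. Each of the 17 enzymes had a control median above 0 CPM, the lowest being 12.5 CPM for Tm7sf2. The shares of enzymes and of all genes are thus not on an equal footing.

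The early steps, which run from acetyl-CoA to farnesyl diphosphate, had a median log2 ratio of -0.60 over 6 expressed genes, and 3 of them were called lower. All 9113 expressed genes had a median of -0.03. Hmgcs1, the cytosolic synthase that makes HMG-CoA (chr13:119690379-119708260 in GENCODE M21 on GRCm38), had 0 CPM in the lowest experiment neuron, 207 at the median and 776 in the highest, against 60.98, 428 and 1309 CPM in control neurons. It lay below the control median in 33 of 38 experiment neurons, and while 36 of 38 experiment neurons had a count, all 66 control neurons did. Pooled, Hmgcs1 had 275 CPM in experiment and 484 CPM in control neurons, a ratio of 0.567 (0.555 to 0.579), and the ratio was 0.752 in set 1 and 0.445 in set 2.

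Idi1, the isomerase that balances the building blocks of isoprenoids, had 0, 8.80 and 80.5 CPM at the lowest, median and highest experiment neuron and 0, 33.1 and 208 CPM in control neurons. The median of Idi1 was thus lower in experiment neurons although the ranges overlapped from 0 up, and its pooled ratio was 0.508 (0.468 to 0.550). Mvd, the decarboxylase that ends the mevalonate steps, had a median of 0 CPM in experiment and 65.6 CPM in control neurons, and highest values of 275 and 459 CPM. Only 16 of 38 experiment neurons had a count of Mvd, against 48 of 66 control neurons, and library 2 alone held 38.6% of its experiment counts. The pooled ratio of Mvd was 0.599, and 0.522 with the top library of each group left out. In libraries at or below the median ERCC share, 12 experiment and 40 control, the pooled ratio was 0.909 for Mvd and 0.786 for Idi1, which ends both calls. By the mean the ratios there were 0.527 for Mvd and 0.592 for Idi1, still past the threshold.

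Over all libraries the other expressed early genes moved less, or not the same way by every measure. Acat2, the thiolase that joins acetyl-CoA units, had a median of 77.4 CPM in experiment and 132 CPM in control neurons and a pooled ratio of 0.724. Pmvk, the kinase that adds the later phosphate to mevalonate, had a pooled ratio of 0.738, but 0.499 in set 1 and 1.01 in set 2. Mvk, the kinase before it, was 1.41-fold higher pooled, with 46.5% of its experiment counts in library 43. The median of Mvk was 0 CPM in experiment and 28.6 CPM in control neurons, its ratio was 0.474 in set 1, 2.50 in set 2 and 0.828 with the top library of each group left out, and after thinning 15 of 34 experiment and 48 of 60 control libraries had a count. Fdps, which makes farnesyl diphosphate, was counted at 2.59 CPM in experiment and 4.94 CPM in control neurons, under the filter. In libraries low in ERCC share Acat2 (0.519 pooled, 0.466 by the mean) and Pmvk (0.505 and 0.629) were called lower. In libraries with more genes detected Acat2 and Mvk were called lower.

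**Figure D3:**
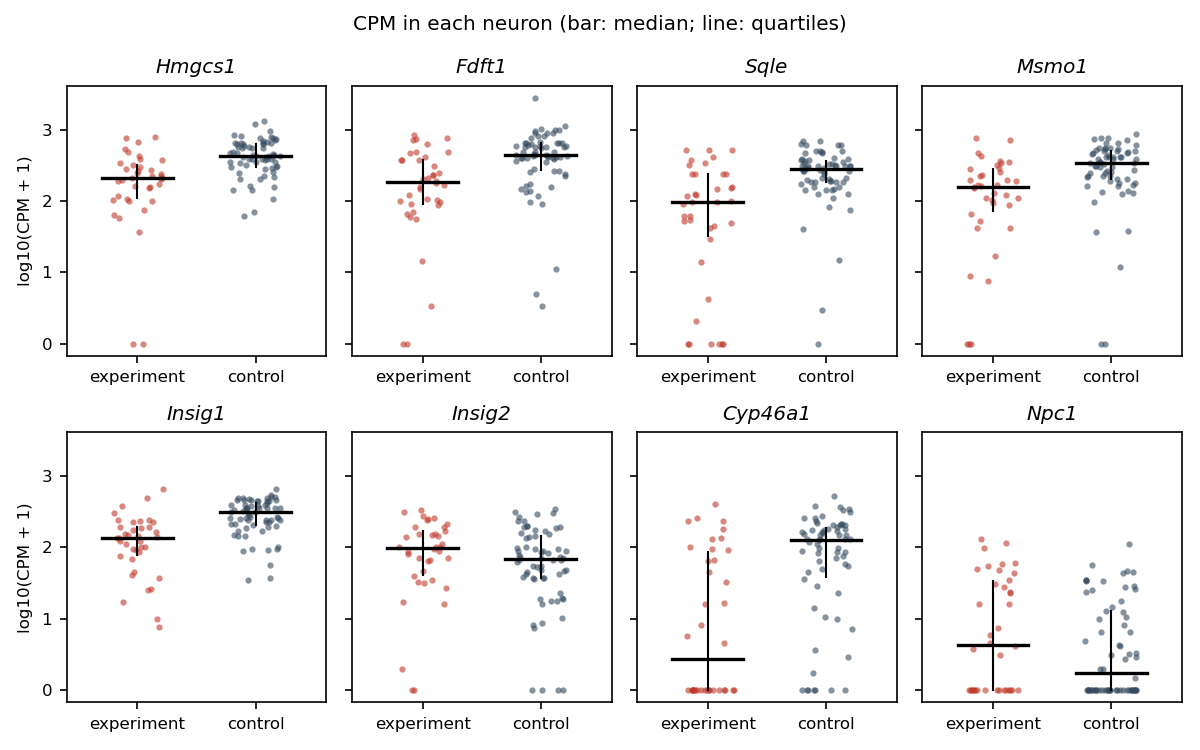
Level of 8 genes as log10(CPM + 1) in each neuron, experiment left of control in each panel, with 1 point for each library, a bar at the median and a line over the quartiles. For Hmgcs1 the medians are 207 against 428 CPM and for Insig1 135 against 309 CPM.

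The squalene steps are the first that serve sterols alone. All 3 genes were called lower, with a median log2 ratio of -0.84. Fdft1, squalene synthase (chr14:63145150-63179578), had 0, 184 and 839 CPM at the lowest, median and highest experiment neuron, against 2.35, 445 and 2746 CPM in control neurons. The control group reached higher, and 30 of 38 experiment neurons lay below the control median. The pooled ratio of Fdft1 was 0.601 (0.588 to 0.613), 0.650 in set 1 and 0.577 in set 2. In libraries at or below the median ERCC share it was 0.928 pooled and 0.707 by the mean, which ends the call. Exons of Fdft1 overlap those of Ctsb in the annotation, and without a stated strand setting, reads of the overlap cannot be told apart. The same holds for each overlap named below, and for Hmgcs1 with Gm48342, Idi1 with Gm48574, Fdps with Gm43738 and Scap with 5830462I19Rik.

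Sqle, squalene epoxidase (chr15:59315077-59331192), had 0, 96.0 and 524 CPM in experiment neurons and 0, 281 and 695 CPM in control neurons. Both groups started at 0, yet 31 of 38 experiment neurons were under the control median. Its pooled ratio was 0.558 (0.543 to 0.573), 0.637 in set 1 and 0.458 in set 2. Lss, which closes squalene epoxide into lanosterol, was much sparser, with medians of 4.83 CPM in experiment and 13.6 CPM in control neurons and a ratio of 0.537. Only 23 of 38 experiment neurons lay below the control median of Lss, and its exons overlap 4930483K19Rik. Its ratio was 0.787 pooled and 0.732 by the mean in libraries low in ERCC share, which ends the call. In libraries with more genes detected its log2 ratio was 0.44.

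The sterol steps, from lanosterol to cholesterol, were mixed. Of 8 expressed genes, 2 were called lower and none higher, and the median log2 ratio was -0.09. Msmo1, the oxidase that starts removal of methyl groups from the sterol ring (chr8:64718139-64733792), had 0, 158 and 762 CPM at the lowest, median and highest experiment neuron, against 0, 339.6 and 863 CPM in control neurons. The ranges nearly coincided at both ends while 31 of 38 experiment neurons fell under the control median. Its pooled ratio was 0.595 (0.581 to 0.610), 0.648 in set 1 and 0.615 in set 2. Hsd17b7, the ketoreductase of the same demethylation, had a median of 0 CPM in experiment and 44.1 CPM in control neurons, and 34 of 38 experiment neurons lay below the control median. Its pooled ratio was 0.449, 0.603 in set 1 and 0.211 in set 2.

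The rest of the sterol steps stayed within 1.5-fold pooled. Cyp51, the lanosterol demethylase, had a ratio of 0.756, with exons that overlap Akap9. Nsdhl, the dehydrogenase that acts between Msmo1 and Hsd17b7, had a pooled ratio of 0.995, although its median was 3.83 CPM in experiment and 41.5 CPM in control neurons. Sc5d, the desaturase near the end of the pathway, had 103 CPM at the experiment and 133 CPM at the control median, with a ratio of 0.958. The remaining pooled ratios were 1.20 for Tm7sf2, a sterol reductase whose exons overlap Vps51, 1.22 for Ebp, the sterol isomerase, and 0.923 for Dhcr7, the reductase that ends a branch of the pathway. By the mean they were 0.858 for Tm7sf2, 0.979 for Ebp and 0.780 for Dhcr7. Medians in experiment and control neurons were 0 and 12.5 CPM for Tm7sf2 and 10.2 and 24.4 CPM for Ebp. In libraries low in ERCC share Cyp51, Tm7sf2 and Sc5d were called lower, while Nsdhl and Dhcr7 were above 1 pooled. The sets were far apart for Ebp, at 1.94 and 0.953, and for Dhcr7, at 1.58 and 0.679.

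Among the regulatory genes, Insig1 was called lower and Insig2 was not called. Insig1 (chr5:28071363-28078662), which holds Scap in the endoplasmic reticulum and is itself a known SREBP target, was counted in every neuron of both groups. It had 6.66, 135 and 665 CPM at the lowest, median and highest experiment neuron, against 33.8, 309 and 649.7 CPM in control neurons. In 35 of 38 experiment neurons Insig1 lay below the control median, the most of any member, although the highest neuron of all was an experiment neuron. That neuron, library 1, held 24.3% of the group's Insig1 counts. The pooled ratio of Insig1 was 0.636 (0.620 to 0.653), and 0.521 with the top library of each group left out. It was 0.721 in set 1, short of the threshold, and 0.480 in set 2. Insig2, its paralog, which is not driven by SREBP in the same way, had medians of 97.2 CPM in experiment and 68.2 CPM in control neurons and a ratio of 1.19, and its log2 ratio was above 0 under every alternative run.

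The SREBP genes themselves went opposite ways by both weightings, but not by the median neuron. Srebf2, whose protein drives most of the synthesis genes, had 0, 10.2 and 128 CPM at the lowest, median and highest experiment neuron, against 0, 39.4 and 182 CPM in control neurons. The experiment median was lower and the ranges overlapped, with a pooled ratio of 0.555 (0.518 to 0.594), 0.645 in set 1 and 0.477 in set 2. Srebf1, whose protein is better known for fatty acid genes, was 1.85-fold higher pooled, at 27.01 CPM in experiment and 14.6 CPM in control neurons. That call rests on few neurons. The median of Srebf1 was 0 CPM in experiment and 0.801 CPM in control neurons, and 23 of 38 experiment neurons lay below the control median. A count of Srebf1 was found in 15 of 38 experiment and 34 of 66 control neurons, the ratio was 1.00 in set 1 and 3.53 in set 2, and without library 27 it was 1.62 pooled and 1.40 by the mean, which ends the call, as it does in libraries low in ERCC share, with 1.26 pooled and 0.812 by the mean. Without the 7 libraries richer in glial than dopaminergic markers it was 1.81 pooled and 1.57 by the mean. Exons of Srebf1 overlap Rai1 and Mir6922. Scap, the escort, had a ratio of 0.658, with 0.671 and 0.656 in the sets, just short of the threshold.

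None of the 3 receptors of lipoprotein uptake was called over all libraries, and all 3 were below 1 by both weightings. Pooled, Vldlr was above 1 in set 2 and in libraries with more genes detected. Lrp8 was above 1 in libraries low in ERCC share, where its log2 ratio was 0.53. Other choices brought calls. In libraries low in ERCC share Lrp1 (0.550 pooled, 0.584 by the mean) and Vldlr (0.505 and 0.643) were called lower. Vldlr and Lrp8 were called lower in set 1 alone, and Lrp8 also in libraries with more genes detected. With the most glial libraries dropped, which left 24 experiment and 54 control neurons, Lrp1 and Lrp8 were called lower. Lrp1, a large receptor that takes up apolipoprotein particles, had medians of 112 CPM in experiment and 122 CPM in control neurons and a pooled ratio of 0.696. Vldlr, the very-low-density lipoprotein receptor, had a ratio of 0.768, 0.430 in set 1 and 1.15 in set 2. Lrp8, a reelin and apolipoprotein receptor, had medians of 1.00 and 3.11 CPM, and 42.5% of its experiment counts came from library 44.

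Transport inside the cell held the other member called higher. Npc1, the lysosomal membrane protein that moves cholesterol out of the lysosome, had 0, 3.36 and 132 CPM at the lowest, median and highest experiment neuron, against 0, 0.729 and 111 CPM in control neurons. Both medians were near 0, and 22 of 38 experiment neurons lay above the control median. The pooled ratio was 2.38 (2.15 to 2.62), 2.55 in set 1 and 2.22 in set 2, with 34.5% of the experiment counts in library 1, and it was 2.42 with the top library of each group left out and 2.29 without library 27. Among libraries at or below the median ERCC share the ratio of Npc1 was 0.883 pooled but 1.66 by the mean. In libraries low in spike-in its direction thus held by 1 of the 2 weightings only, which ends the call. Exons of Npc1 overlap Rmc1 and Gm15956. Npc2, the soluble partner that hands cholesterol to Npc1, had medians of 76.4 CPM in experiment and 79.0 CPM in control neurons and a ratio of 0.994. In libraries low in ERCC share the ratio of Npc2 was 0.726 pooled and 0.627 by the mean. In libraries with more genes detected Npc2 was called lower.

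Stard4, a cytosolic sterol carrier known as an SREBP target, had 0, 1.77 and 92.4 CPM at the lowest, median and highest experiment neuron, against 0, 16.01 and 165 CPM in control neurons. Its pooled ratio was 0.527 (0.480 to 0.577), 0.532 in set 1 and 0.584 in set 2, and a count was found in 20 of 38 experiment neurons and in 53 of 66 control neurons. In libraries low in ERCC share its ratio was 0.704 pooled and 0.778 by the mean, which ends the call. Soat1, which esterifies cholesterol for storage, stood at 27.9 CPM in both groups.

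Of the genes of export, Cyp46a1 was lower and found in fewer neurons. Cyp46a1 (chr12:108334381-108362234), the neuronal hydroxylase that makes the oxysterol form in which cholesterol leaves the brain, had 0, 1.76 and 408 CPM at the lowest, median and highest experiment neuron, against 0, 127 and 530.0 CPM in control neurons. A count was found in 19 of 38 experiment and 59 of 66 control neurons, and at 400000 counts in 18 of 34 and 51 of 60. The pooled ratio was 0.503 (0.480 to 0.526), and it was alike in the sets, 0.497 in set 1 and 0.513 in set 2. Abca1, the pump that loads cholesterol onto lipoproteins, was scarce, at 9.86 CPM in experiment and 10.6 CPM in control neurons, with ratios of 0.243 in set 1 and 1.77 in set 2.

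Per kilobase of exon (GENCODE M21, since the annotation used for counting was not stated), the same 4 genes led both groups. In experiment neurons the highest pooled levels were those of Pmvk with 73.7, Fdft1 with 71.2, Insig1 with 61.2 and Hmgcs1 with 59.8 CPM per kb. In control neurons they were those of Fdft1 with 119, Hmgcs1 with 105, Pmvk with 99.8 and Insig1 with 96.2 CPM per kb. The lowest in experiment neurons were Fdps with 0.615, Abca1 with 0.951 and Lrp8 with 1.33 CPM per kb. The lowest in control neurons were Npc1 with 0.845, Abca1 with 1.02 and Fdps with 1.17 CPM per kb.

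From neuron to neuron, the enzymes varied loosely together within each group. Over the 136 pairs of the 17 expressed enzymes, the median Spearman correlation was 0.19 across 38 experiment neurons and 0.20 across 66 control neurons, beside 0.04 in each group for all pairs of expressed genes. Of the 136 pairs, 112 in experiment and 127 in control neurons were above 0. The median was 0.19 and 0.21 in the 2 sets of experiment neurons and 0.22 and 0.15 in those of control neurons. All genes of a neuron share its library total and depth, and neurons can share animals the labels do not give. Correlations this weak in sparse counts are given as a description only.

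The highest correlations across experiment neurons were those of Mvk with Fdft1 at 0.62, Mvk with Msmo1 at 0.49, Sqle with Tm7sf2 at 0.48 and Hmgcs1 with Msmo1 at 0.46. Across control neurons they were those of Hmgcs1 with Msmo1 at 0.60, Hmgcs1 with Fdft1 at 0.54 and Fdft1 with Msmo1 at 0.53. Of the enzymes, Msmo1 followed the sum of the others most closely, with a correlation of 0.63 across experiment and 0.66 across control neurons, and Hmgcs1 came next, with 0.52 across experiment and 0.58 across control neurons. Insig1, which is no enzyme, had 0.55 across experiment and 0.42 across control neurons. Srebf2 had 0.23 in each group and Srebf1 had -0.10 and 0.05.

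**Figure D4:**
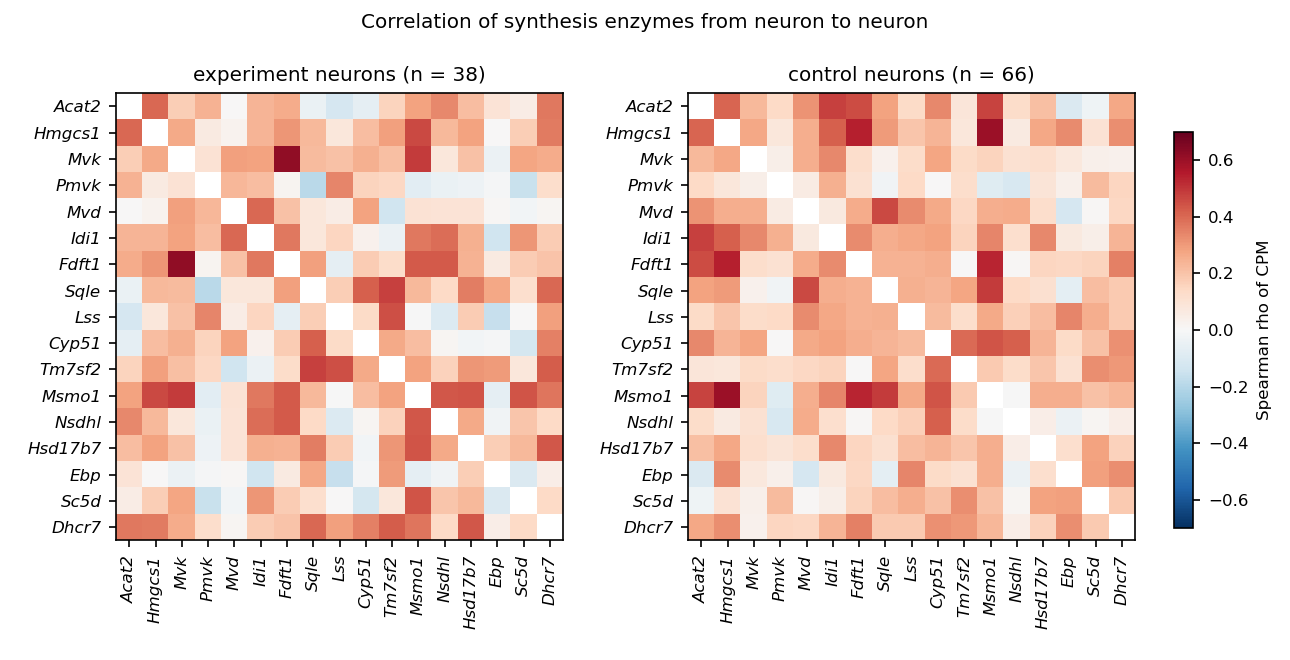
Spearman correlation of CPM across neurons for each pair of the 17 expressed enzymes, in experiment neurons left and control neurons right, coloured from -0.7 to 0.7. Most squares are faintly positive, with medians of 0.19 and 0.20, and Hmgcs1, Fdft1 and Msmo1 form the strongest group in control neurons.

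Neurons with more dopaminergic marker RNA held more enzyme RNA in the control group. The correlation of the enzyme sum with the sum of 10 dopaminergic markers was 0.16 across 38 experiment neurons and 0.55 across 66 control neurons. In the experiment sets it was 0.12 and 0.27, and in the control sets 0.82 in set 1 and 0.22 in set 2, so the relation of the control group was mostly that of set 1. Both sums are shares of the same library total and the difference between groups was not tested. With the glial sum the enzyme sum had a correlation of 0.02 across experiment and -0.31 across control neurons. In the control sets that correlation was -0.50 in set 1 and -0.10 in set 2. With the sum of GABAergic neuron markers it was -0.02 across experiment and -0.31 across control neurons. In the control sets it was -0.45 and -0.11. With gene counts the correlations were 0.34 and 0.01, with genes detected -0.12 and 0.06 and with the ERCC share -0.11 and -0.02.

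**Figure D5:**
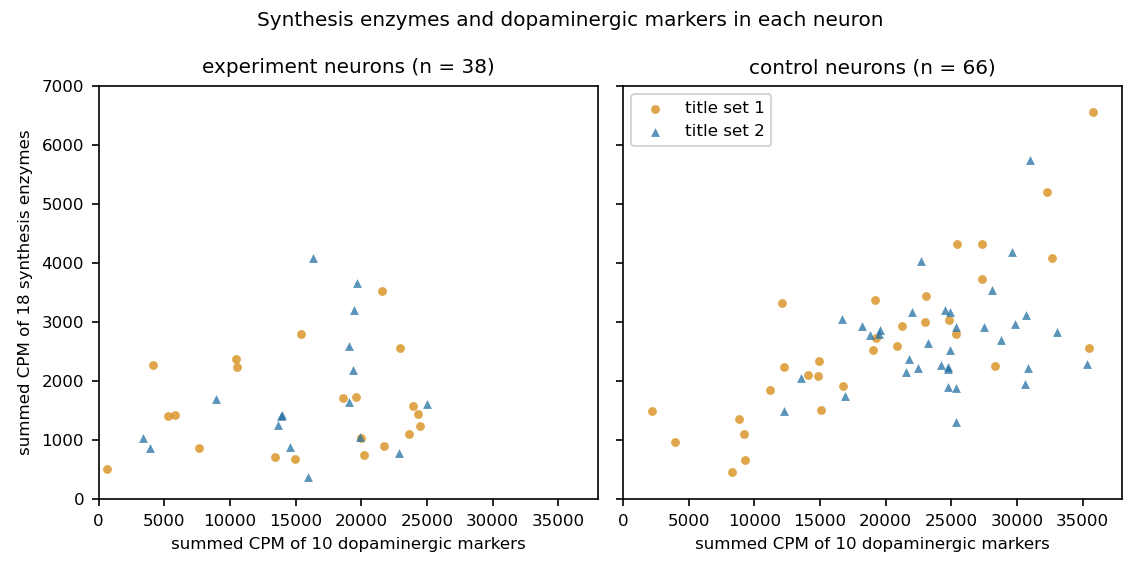
Summed CPM of the 18 synthesis enzymes against summed CPM of 10 dopaminergic markers, 1 point for each neuron, experiment left and control right, with title sets marked by shape. Control neurons of set 1 climb together with a Spearman correlation of 0.82, while the 38 experiment neurons show 0.16.

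Ranked by correlation with the enzyme sum across the 66 control neurons, the first 5 of 9082 other expressed genes included genes of the dopamine neuron. They were Slc18a2, the vesicular monoamine transporter, with 0.26 across experiment and 0.62 across control neurons, Chrna6, a nicotinic receptor subunit, with -0.18 and 0.60, Slc6a3, the dopamine transporter, with 0.17 and 0.57, Scn3b, a sodium channel subunit, with 0.25 and 0.57, and Atp2c1, a Golgi calcium pump, with 0.16 and 0.56. All were higher in control set 1 than in control set 2. In sets 1 and 2 of the controls Slc18a2 had 0.73 and 0.52, Chrna6 0.77 and 0.32, and Slc6a3 0.77 and 0.34. Scn3b had 0.61 and 0.51 there and Atp2c1 0.66 and 0.47. Slc18a2 and Slc6a3 are also part of the dopaminergic sum above.

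The wider pathway was measured in 5 further lists of 79 genes, of which 67 were expressed. Of these, 8 were called lower and 2 higher, and their log2 ratios had a median of -0.16, beside -0.03 for all expressed genes. Beside the 11.0% called lower and 7.77% called higher of all expressed genes, these counts show nothing particular to the lists. In the 12 expressed genes of fatty acid synthesis, 2 were lower, 1 was higher and the median was -0.38. Acss2, which makes acetyl-CoA from acetate, had 33.9 CPM pooled in experiment and 79.1 CPM in control neurons, with a ratio of 0.428 (0.403 to 0.454). Fasn, the fatty acid synthase, had 95.9 CPM in experiment and 167 CPM in control neurons, with a ratio of 0.573. Fads2, a fatty acid desaturase, was the higher one, at 24.9 CPM in experiment and 12.4 CPM in control neurons. Acss2 and Fasn were below 1 in both sets, at 0.462 and 0.501 and at 0.616 and 0.496.

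The other lists held few calls. SREBP processing and sterol sensing had 14 expressed genes, none lower, and 1 higher, Erlin1, which helps degrade sterol-regulated proteins, at 14.2 CPM in experiment and 8.95 CPM in control neurons. The nonsterol isoprenoid branch had 14 expressed genes, of which Rce1, a protease of prenylated proteins, with a ratio of 0.564, and Rabggta, a prenyl transferase subunit, also with 0.564, were lower. Of 8 expressed genes of the liver X receptor and export list, Abcg4, a sterol exporter, was lower, at 33.4 CPM in experiment and 69.5 CPM in control neurons. Of 19 expressed sterol transfer genes, 3 were lower, Scarb1, a lipoprotein receptor, with a ratio of 0.398, Vapb, a membrane contact protein, with 0.464, and Scarb2, a lysosomal membrane protein, with 0.624.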

How the data were processed

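RNA of single substantia nigra neurons was converted to cDNA by Smart-seq2 and made into libraries using the HyperPlus kit, per the labels' protocols. What the authors deposited is 1 table of counts (whole, not normalized, by gene symbol) that covers 104 libraries. STAR 2.5.3a, featureCounts 1.5.3 and mm10 are named, without role or order, per the submitters' processing notes. For annotation, strand and multi-mapping settings, nothing was given in the sources used here. Beside 45808 gene rows, the 92 ERCC rows were left out of library totals.

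From the counts, CPM per library, pooled CPM with exact Poisson intervals and ratios with exact binomial intervals, all at 95%, were computed in Python 3.11.15 with numpy 2.4.6, pandas 2.3.3 and scipy 1.17.1, and plotted with matplotlib 3.10.9. The code was checked on simulated data. Groups were read from sample titles. No test was made, because each group is 1 sample and cells are not replicates. No pair of libraries held identical counts. Title set 1 holds controls whose titles are capitalised and experiment titles below 36, and set 2 the rest. The labels do not call these batches, and the division of experiment libraries rests on the order of the records. Expressed genes had a pooled CPM of at least 10 and a count in 25% or more of either group. All 32 members are described, and genes of other lists are named only where called in both title sets, at most 4 a list. The members, lists and marker genes were chosen with earlier results of these data known. Alternatives covered weighting, pseudocounts of 1 and 10, edgeR 4.0.16 TMM and DESeq2 1.42.0 size factors (R 4.3.3) for scaling only, filters, a fold of 2, thinning, and libraries chosen by title set, glial markers, ERCC share or genes detected.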

Additional observations from a re-analysis of the deposited data

How the results depend on the processing

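Of 210 values, 15 for each of the 14 members called, 205 kept the direction of the reported one, 1 was exactly 0 (Insig1 as the share of thinned libraries with a count) and 4 were reversed. Some of these values could not reverse. The equally weighted mean, 1 of the 15 alternatives, is part of the rule of calling. Totals without mitochondrial genes, another, shift every pooled log2 ratio alike and by too little to reverse a call. Under these 15 alternatives 11 members were never reversed. The reversed log2 values were 0.44 for Lss in libraries with more genes detected and -0.18 pooled for Npc1 in libraries low in ERCC share. By the mean Npc1 had 0.73 in the latter. For Srebf1 the reversed values were -0.20 as a mean of log2(CPM + 1) and -0.45 as the share of thinned libraries with a count. The median log2 ratio of the enzymes, -0.47, was -1.35 as a mean of log2(CPM + 1), where all expressed genes had -0.38, and -1.08 in libraries with more genes detected, where all had -0.14. The 2 members called higher became 0 with a stricter filter, where 4.54% of all genes passing it were called higher. The number was also 0 in libraries low in ERCC share (11% of all expressed genes). It was 1 with a fold of 2 (2.35%), in set 1 alone (9.69%) or without experiment library 27 (8%), and 4 in set 2 alone (14.6%). The 12 called lower became 1 with a fold of 2, Hsd17b7, where 3.8% of all expressed genes were called lower. Under every other alternative run they numbered 11 to 15, but were not always the same genes. With a stricter filter 11 of 24 members were lower, beside 7.1% of all genes passing it. Without a filter 13 of 32 were lower, beside 22.9% of all genes with a count. Of the 12, 7 were among the 14 in libraries low in ERCC share, where 17.1% of all expressed genes were called lower, 9 among the 13 in set 1 alone (16.6%), 11 among the 11 in set 2 alone (17.5%) and 10 among the 15 in libraries with more genes detected (20%). Hmgcs1, Insig1 and Stard4 were not called in set 1 alone, and Lss was not called in set 2 alone. The cause of these changes was not tested. Without library 27 the median of the enzymes was -0.42, and without the 7 libraries with more glial than dopaminergic markers it was -0.36, with the same 12 members lower. Both omissions, and libraries with more genes detected for calls and median, were chosen after seeing the data. No paired analysis was possible because the results come from no test and the labels pair no libraries. Each group is 1 sample of neurons of unknown animals, and many members had no count in part of the libraries, so at this depth a level of 0 in a neuron does not show that the gene was silent there.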
